A study of Homo sapiens with 6 samples.

Results

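Cytosolic ribosomal protein genes encode the protein part of the ribosome, and among them stood RPL30, the member with the deepest fall after RNF6 siRNA. The class was taken by symbol: RPL or RPS, digits, an optional ending A, L, X, L1 or AL, and nothing after, together with RPLP0, RPLP1, RPLP2 and RPSA, without pseudogenes. This rule found 87 of 56638 listed gene symbols, 34 of the small (40S) and 53 of the large (60S) subunit. Of these, 81 had enough reads to be tested, 31 of the 40S and 50 of the 60S genes. The 6 untested members had 0 to 21 reads each over all libraries, among them RPL10L with 2, RPL39L with 6, RPS10L with 10 and RPL3L with 21.

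RNA sequencing covered HT29, an established human colorectal cancer line, labelled wild type. In 3 libraries the cells had received a nonspecific control siRNA, and in 3 an siRNA against RNF6, which encodes a RING-type E3 ubiquitin ligase. All libraries come from this 1 line in culture. The sources used here do not give the time between transfection and harvest, and the labels do not say that replicates were separate cultures. The p-values therefore rest on the scatter among libraries, part or all of which may be technical.

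Every ribosome carries one copy of nearly all of these proteins, and cells make them in matched amounts. Their mRNAs belong to the 5′ terminal oligopyrimidine (TOP) class: transcription starts at a C in a short stretch of C and T bases, and mTORC1 controls their translation through that stretch. Some of the proteins also act outside the ribosome: RPL11 and RPL5, bound to 5S ribosomal RNA, inhibit the p53 ligase MDM2. RPL30 contacts the large subunit's side of the interface between subunits and binds kink-turn RNA folds, including one in its own transcript.

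The start of the transcript, where TOP mRNAs are recognised, is shown for called members and for pairs of a gene and its paralog, where the table has an entry. The RefSeq promoter table (GRCh38.p14, another build than the hg19 of the counts) held 68 of the 87 members, and of the called members not RPL30, RPL23, RPL23A and RPS2. Each line gives the 10 bases before and the 10 bases from an annotated start, 5′ to 3′ on the gene's strand. Capitals mark a run of at least 6 C or T bases.
RPL11 (chr1:23691796-23691815, plus strand): gctccgCTTTCTCTTCCTgc
RPL31 (chr2:101002279-101002298, plus strand): ccttcgcgCTCTTCCTTTCC
RPL13A (chr19:49487598-49487617, plus strand): aaaCCTCCTCCTTTTCCaag
RPL17 (chr18:49492456-49492475, minus strand): TTCCCTaagcagcctgaggt
RPL6 (chr12:112411433-112411452, minus strand): gtatcctcagtgaatcagaa
RPL26 (chr17:8383184-8383203, minus strand): gcgtgtagTTCTCTTCCCTT
RPL26L1 (chr5:172958719-172958738, plus strand): tccaggggtcggcgaacgaa
RPL22 (chr1:6199586-6199605, minus strand): cgctcaCCTCCCTTTCTaac
RPL22L1 (chr3:170870186-170870205, minus strand): ccgtagCTTCCTCTCTgctc
RPS27 (chr1:153990752-153990771, plus strand): cgctttcgCTCCTTTCCggc
RPS27L (chr15:63157468-63157487, minus strand): gatgccgagcgcagatcgct
RPL36A (chrX:101391001-101391020, plus strand): ctcgcggTTTCTTTCTTTCC
RPL36AL (chr14:49620617-49620636, minus strand): TCTTCCCTTTCCTgttaggc
RPL7L1 (chr6:42879606-42879625, plus strand): gtgcggcgccgtagctagga
RPL11, RPL31, RPL13A, RPL17 and RPL26 hold such a run in the window, and RPL6, RPL26L1 and RPL7L1 hold none. The table lists another start each for RPL11, RPL6 and RPL26L1, and none of those windows holds a run. Of the paralog pairs, RPL22 and RPL22L1 both hold one, as do RPL36A and RPL36AL, whereas RPS27 does and RPS27L does not. A run of at least 6 C or T on the gene's strand was found in 55 of 68 members (80.9%) and in 7162 of 27305 genes with an entry (26.2%). On the opposite strand, read as a run of at least 6 A or G, it was found in 5 members (7.35%) and in 21.8% of all genes. Among members ending in L, L1 or AL, 2 of 6 held the C or T run (33.3%), against 53 of the other 62 (85.5%). A run is a description of these letters, not a measured start site.

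Gene reads per library ranged from 6808771 to 11071456. RNF6, the target, was at 54.3, 45.2 and 57.8 CPM across control replicates 1, 2 and 3, against 16.5, 16.2 and 16.9 CPM across RNF6 siRNA replicates 1, 2 and 3, so the groups did not overlap. It was 3.17-fold lower (adjusted p = 2.12e-06, log2 fold change −1.66 with SE 0.126). Levels in CPM are relative to each library's gene reads, scaled by TMM factors between 0.985 and 1.02. Adjusted p-values for genes come from edgeR's quasi-likelihood test with Benjamini-Hochberg adjustment over the 14685 genes tested, and a gene is called, or said to rise or fall, at an adjusted p below 0.05. Of the intestinal markers, CDX1 had no reads and VIL1 and LGALS4 were at or near 0, while EPCAM was at 218 ± 9.91 and 227 ± 15.04 CPM (SD, n = 3).

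As a class, ribosomal protein mRNA stayed near its control level while single members moved apart from it. After RNF6 siRNA 8 of 81 tested members rose and 3 fell, and 70 were not called. Rises made up 16.6% of all tested genes, falls 16.1% and both together 32.7%, against 13.6% of the members. The groups' libraries did not overlap for 17 members (21.0%), compared with 44.2% of all tested genes. The 8 that rose were RPL26L1, RPL11, RPL17, RPL13A, RPL23A, RPS2, RPL7L1 and RPL6, and the 3 that fell were RPL30, RPL23 and RPL31.

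The median log2 fold change of the members was 0.02, next to 0.01 over all tested genes, with 45 members above and 36 below 0. Their quartiles lay at −0.13 and 0.10, against −0.27 and 0.30 for all genes. Of the members, 63 (77.8%) were within 0.25 of 0 on the log2 scale, against 45.1% of all genes, and 77 were within 1.5-fold. The members outside 1.5-fold were RPL30, RPL23, RPL11 and RPL26L1.

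**Figure D1:**
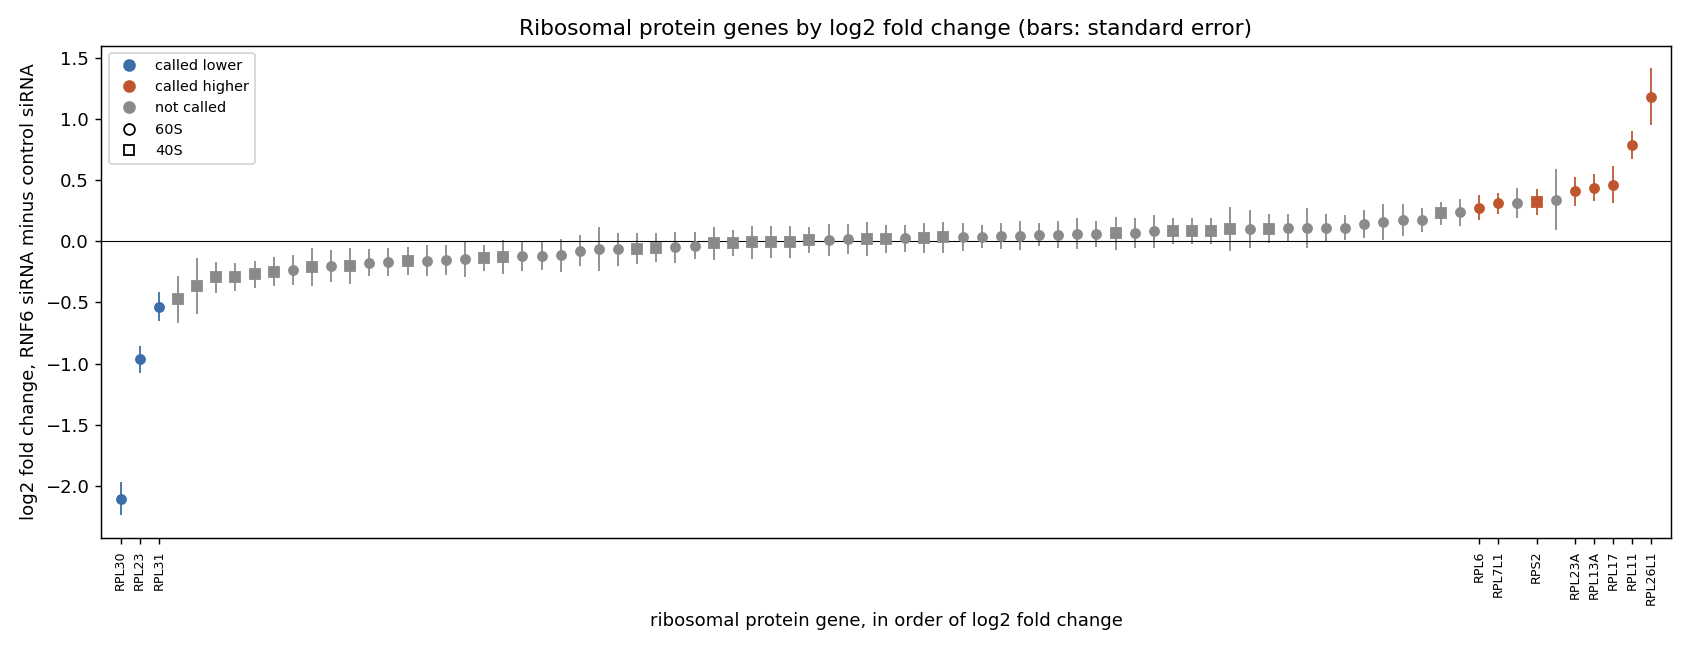
Log2 fold change (RNF6 siRNA minus control siRNA) of the 81 tested ribosomal protein genes in rank order, with 1 point per gene, standard errors as bars, colour for the call and the called genes named. Most points lie near 0, RPL30 lies at −2.11 and the next member, RPL23, at −0.97.

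The subunits differed in their counts: of 31 tested 40S genes, RPS2 rose and none fell (3.23% called), whereas of 50 tested 60S genes 7 rose and 3 fell (20%). Their medians were −0.01 and 0.05. The difference between subunits was not tested. In the count by subunit, leaving out control replicate 1 gave 4 lower 40S genes and 5 lower 60S genes, with 0 and 5 higher. Without control replicate 3 no 40S gene was called, and of the 60S genes 2 were higher and 3 lower.

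Ribosomal protein reads made up 3.88%, 4.91% and 4.29% of gene reads in control replicates 1, 2 and 3, and 4.78%, 4.30% and 4.07% in the RNF6 siRNA replicates. The groups overlapped, with means of 4.36% ± 0.522 and 4.38% ± 0.365 (SD, n = 3). The difference of 0.0229 percentage points gave p = 0.9 in an exact two-sided permutation test, where 3 against 3 libraries cannot go below 0.1.

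Within each group the members moved together from library to library. Of the control libraries, replicate 2 was the highest for 73 of 81 members, and of the RNF6 siRNA libraries, replicate 1 for 66. The median member stood at −0.18, 0.18 and −0.02 in control replicates 1, 2 and 3 and at 0.15, 0.00 and −0.12 in the RNF6 siRNA replicates, as log2 deviation from its mean over all 6 libraries. The median coefficient of variation over the members was 12.5% in control and 10.1% in RNF6 siRNA libraries by CPM. As a share of the member reads of each library, it was 5.61% and 4.56%. By that share, 31 of 81 members did not overlap between groups, against 35.3% of all tested genes on the same scale.

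**Figure D2:**
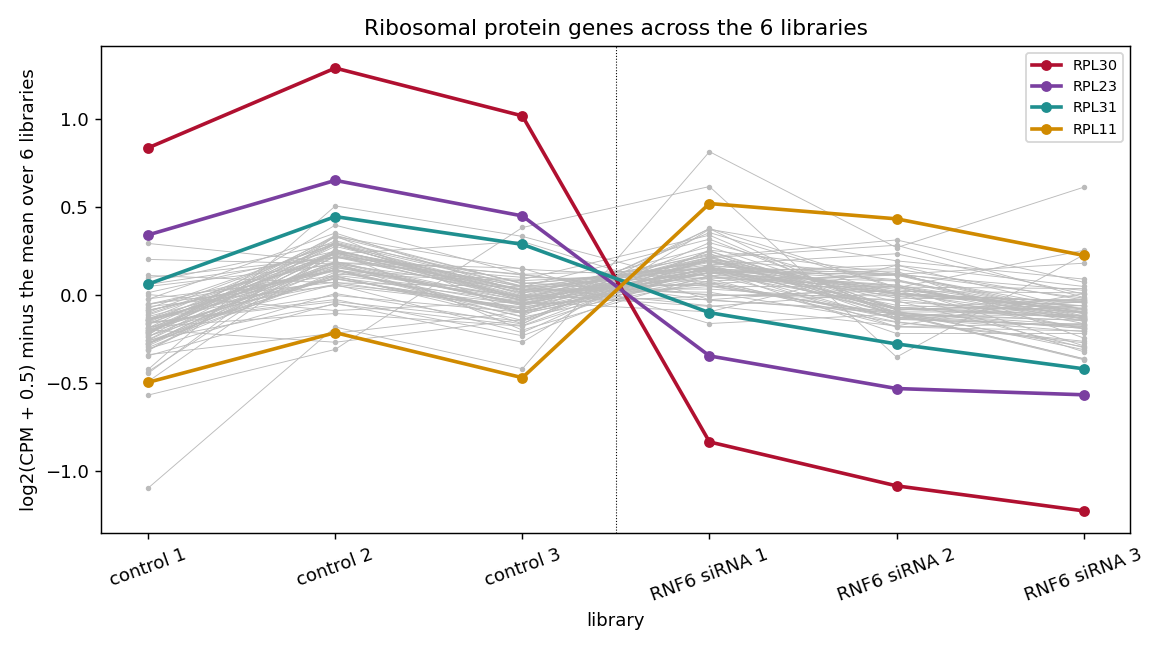
Log2 deviation of each tested ribosomal protein gene from its own mean over the 6 libraries. Each gene is a line with 1 point per library, coloured for RPL30, RPL23, RPL31 and RPL11 and grey for the rest. The library medians, which are not drawn, run from −0.18 in control replicate 1 to 0.18 in control replicate 2. RPL30 stands apart from the rest in all 6 libraries.

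The libraries at the ends of that order bear on which members pass. Without control replicate 1, which had the lowest median, 5 members were higher and 9 lower, and the added falls were RPL27A, RPL38, RPS21, RPS23, RPS28 and RPS3A. Without control replicate 2, which had the highest, 9 were higher and 3 lower, with RPL12, RPL36 and RPLP0 among the higher. Without control replicate 3, only RPL11 and RPL26L1 were higher, and RPL30, RPL23 and RPL31 lower. Of the RNF6 siRNA libraries, leaving out replicate 1 gave 3 higher and 4 lower, and leaving out replicate 2 or 3 gave 5 higher and 3 lower. With TMM factors and library sizes taken from the members alone, a scaling chosen after seeing the data, 3 were higher and 3 lower, and 16.0% of all genes were called. RPL30, RPL23, RPL31, RPL11 and RPL26L1 were called in the same direction in each of the 16 alternatives run, and no other member was.

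RPL30 fell furthest of the class. Its level was 325, 445 and 369 CPM across control replicates 1, 2 and 3, against 102, 85.5 and 77.4 CPM across RNF6 siRNA replicates 1, 2 and 3. Every RNF6 siRNA library lay under every control library, and the lowest control value was above 3 times the highest RNF6 siRNA value. On average it went from 379.7 ± 60.9 to 88.2 ± 12.4 CPM (SD, n = 3) and was thus 4.30-fold lower (adjusted p = 8.81e-07, log2 fold change −2.11 with SE 0.135). In bulk RNA, fewer cells with a transcript and less of it per cell cannot be told apart.

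Only 15 of the 14685 tested genes had a lower log2 fold change than RPL30, and the gap to the next member was 1.14 on the log2 scale. Per 1000 ribosomal protein reads, RPL30 held 8.50, 8.90 and 8.61 in the control libraries and 2.09, 1.98 and 1.92 in the RNF6 siRNA libraries. On this scale, which sets aside the shared movement of the class, the spread within each group was small beside the gap between groups. Per kilobase of transcript, by gene rows alone, RPL30 was 33rd of 81 members in control libraries, at 773 CPM per kb. In RNF6 siRNA libraries it was 57th, at 179 CPM per kb. Over the 16 alternatives its log2 fold change ran from −2.23 to −1.98 and its adjusted p from 1.10e-66 to 3.21e-04.

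Few reads were listed under copies of RPL30. Its 15 listed pseudogene rows held 4 reads in all, against 12347 for RPL30 itself. In the GENCODE 29 gene models on GRCh38, RPL30 lies on chromosome 8, minus strand, and 21.6% of its exon bases lie under exons of AP003352.1. The strand setting of the counting is not given in the sources used here, so reads of overlapping genes cannot be told apart there.

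RPL23, which encodes a core 60S protein that, like RPL11 and RPL5, can bind MDM2, was the next lowest. It was at 853, 1057 and 919 CPM across control replicates 1, 2 and 3, against 529, 465 and 454 CPM across RNF6 siRNA replicates 1, 2 and 3, with all RNF6 siRNA values under all control values. It fell 1.95-fold, from 943 ± 104 to 483 ± 40.6 CPM (adjusted p = 3.80e-05, log2 fold change −0.97 with SE 0.109). Per 1000 member reads it held 22.3, 21.1 and 21.4 in the control libraries and 10.9, 10.8 and 11.2 in the RNF6 siRNA libraries. Its pseudogene rows held 27 reads in all, and its adjusted p over the alternatives ran from 2.27e-16 to 0.00213.

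RPL31, a protein at the rim of the exit tunnel and a Diamond-Blackfan anaemia gene, was at 549, 717 and 643 CPM across control replicates 1, 2 and 3, against 491, 434 and 393 CPM across RNF6 siRNA replicates 1, 2 and 3. The groups did not overlap. It fell 1.45-fold, from 636 ± 83.97 to 439 ± 48.98 CPM (adjusted p = 0.00421, log2 fold change −0.53 with SE 0.118). Per 1000 member reads the groups were further apart, with 14.4, 14.3 and 15 in the control libraries and 10.1, 10.1 and 9.74 in the RNF6 siRNA libraries. Below RPL31 in the order came RPS10, a 40S protein, whose libraries did not overlap either. It missed the threshold at 4.91 ± 0.281 and 3.55 ± 0.366 CPM (log2 fold change −0.47, adjusted p = 0.0747). Its row held only 226 reads in all, and 39.4% of its exon bases lie under RPS10-NUDT3. With its pseudogene rows added its log2 fold change was −0.28 (adjusted p = 0.164).

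**Figure D3:**
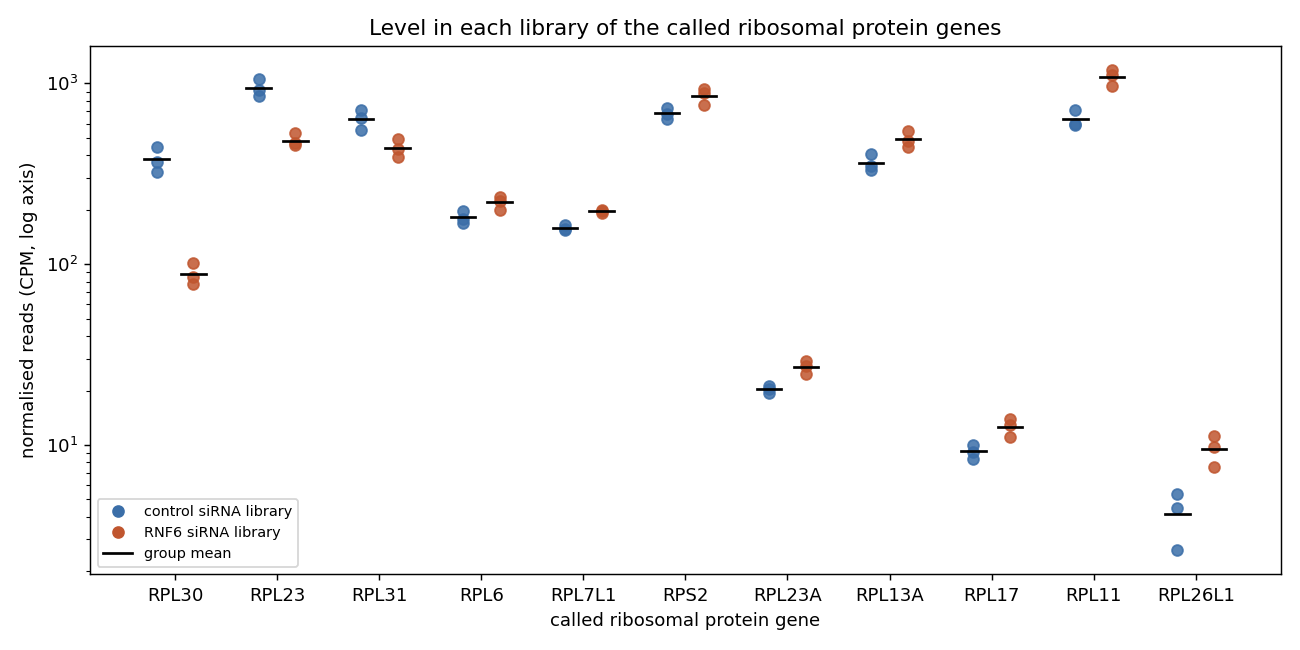
Normalised reads (CPM, log axis) of the 11 called ribosomal protein genes, 1 point per library and a line at each group mean, ordered from the lowest to the highest log2 fold change. RPL30 drops from 380 to 88.2 CPM on average, whereas RPL11 climbs from 633 to 1091.

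RPL11, the 5S RNP protein that holds MDM2 when ribosome assembly is disturbed, rose most among the abundant members. Its level was 587, 714 and 598 CPM across control replicates 1, 2 and 3, against 1187, 1118 and 968 CPM across RNF6 siRNA replicates 1, 2 and 3. All RNF6 siRNA values exceeded all control values, with a rise of 1.72-fold between the means of 633 ± 70.4 and 1091 ± 112 CPM (adjusted p = 2.19e-04, log2 fold change 0.79 with SE 0.112). Per 1000 member reads RPL11 held 15.3, 14.3 and 13.9 in the control libraries and 24.4, 25.9 and 23.97 in the RNF6 siRNA libraries. No read was listed under its pseudogene row, its exons lie under no other annotated gene, and over the alternatives its adjusted p ran from 1.64e-10 to 0.00403.

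RPL5, its partner in the 5S RNP, was at 1252, 1399 and 1309 CPM in control and 1546, 1553 and 1374 CPM in RNF6 siRNA libraries. The groups overlapped and it was not called (adjusted p = 0.185, log2 fold change 0.18 with SE 0.0972). Of the mRNAs of these 2 proteins, 1 thus rose and none fell, where 16.6% of all tested genes rose.

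RPL26L1, an intact relative of RPL26, which sits at the exit tunnel, had the largest rise of the class but few reads, 390 in all. It was at 2.61, 5.37 and 4.48 CPM across control replicates 1, 2 and 3, against 11.2, 7.53 and 9.68 CPM across RNF6 siRNA replicates 1, 2 and 3. The groups did not overlap, and the means of 4.16 ± 1.41 and 9.48 ± 1.85 CPM were 2.27-fold apart (adjusted p = 0.00197, log2 fold change 1.18 with SE 0.231). Over the alternatives its adjusted p ran from 2.36e-07 to 0.0188. RPL26 itself was at 14.03, 16.9 and 27.6 CPM in control and 32.5, 16.4 and 24.8 CPM in RNF6 siRNA libraries, with overlapping groups and no call (log2 fold change 0.34, adjusted p = 0.322). Its processed copy RPL26P30, chosen after its values were seen, was at 11.01, 12.4 and 9.49 CPM in control and 27.5, 21.4 and 22.1 CPM in RNF6 siRNA libraries and rose 2.17-fold (log2 fold change 1.12, adjusted p = 1.51e-04). With the pseudogene rows added to RPL26, the sum was called higher (log2 fold change 0.66, adjusted p = 0.0108).

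RPL13A, a 60S protein known to leave the ribosome as part of the interferon-gamma translation silencing complex, was at 330.4, 406 and 348 CPM in control and 544, 480.4 and 447 CPM in RNF6 siRNA libraries. Its groups did not overlap, and the gene row rose 1.36-fold (adjusted p = 0.00861, log2 fold change 0.44 with SE 0.110). RPL13AP5, a pseudogene, held more reads than RPL13A: it was at 1583 ± 183 and 1549.8 ± 136 CPM and was not called (log2 fold change −0.03, adjusted p = 0.859). Pseudogene rows held 78.5% of the reads of RPL13A and its copies, and with those rows added the call ended (log2 fold change 0.07, adjusted p = 0.670). It also ended without control replicate 3 (adjusted p = 0.0617).

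The other 5 rises were of 1.4-fold or less, and each was lost in 6 or more of the 16 alternatives. RPL17, an exit-tunnel protein, had few reads in its row, 607 in all. It was at 8.39, 9.18 and 10.03 CPM in control and 13.9, 11.1 and 12.9 CPM in RNF6 siRNA libraries (log2 fold change 0.46, adjusted p = 0.0311). Of its exon bases, 35.3% lie under other annotated genes, so its low CPM cannot be read as low expression. RPL23A, the docking site of nascent chain factors at the tunnel exit, was at 20.4, 19.4 and 21.2 CPM in control and 27.3, 29.2 and 24.7 CPM in RNF6 siRNA libraries (log2 fold change 0.41, adjusted p = 0.0204). RPS2, a protein of the 40S mRNA entry channel, was at 638, 736 and 676 CPM in control and 883, 928 and 755 CPM in RNF6 siRNA libraries (log2 fold change 0.32, adjusted p = 0.0320). In all 3 genes the control libraries lay under the RNF6 siRNA libraries.

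RPL7L1, a relative of RPL7 that acts in ribosome assembly, was at 155, 164 and 156 CPM in control libraries. In RNF6 siRNA libraries it was at 197, 191 and 199.7 CPM, with little spread by CPM within either group (log2 fold change 0.31, adjusted p = 0.0178). Per 1000 member reads its groups overlapped, at 4.06, 3.274 and 3.635 in control and 4.059, 4.428 and 4.946 in RNF6 siRNA libraries. RPL6 was at 179, 196 and 169.7 CPM in control and 225, 235 and 200.2 CPM in RNF6 siRNA libraries and passed narrowly (log2 fold change 0.28, adjusted p = 0.0499). Per 1000 member reads the groups of RPL6 overlapped too, with control replicate 1 at 4.675 and RNF6 siRNA replicate 1 at 4.622. RPL6P27 held more reads than RPL6 and was at 580.1 ± 61.1 and 722 ± 67.5 CPM (log2 fold change 0.32, adjusted p = 0.0403). This pseudogene was likewise chosen after its values were seen.

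Each of these 5 calls ended when certain single libraries were left out, with the edgeR adjusted p given for each. The RPL17 call ended without control replicate 1 (0.0648), 2 (0.0655) or 3 (0.0639), or RNF6 siRNA replicate 1 (0.109) or 3 (0.1). For RPL23A it ended without control replicate 2 (0.0623) or 3 (0.0659), or RNF6 siRNA replicate 1 (0.0504) or 2 (0.0723). RPS2 lost its call without control replicate 1 (0.0562) or 3 (0.135), or RNF6 siRNA replicate 1 (0.0783) or 2 (0.132). Adding its pseudogene rows ended it as well (0.168). RPL7L1 lost it without control replicate 3 (0.109) or RNF6 siRNA replicate 1 (0.0515) or 3 (0.0818). RPL6 lost it without control replicate 1 (0.0595) or 3 (0.246), or RNF6 siRNA replicate 1 (0.116), 2 (0.160) or 3 (0.0591).

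Of the 10 members whose symbols end in L, L1 or AL, 5 were tested, and RPL26L1 and RPL7L1 rose. By its own row neither parent was called, RPL7 being at 27.7 ± 2.32 and 24.8 ± 2.44 CPM (log2 fold change −0.16, adjusted p = 0.358). Pseudogene rows held 98.6% of the reads of RPL7 and its copies. With pseudogene rows added, RPL7 was at 1793 ± 141 and 1852 ± 135 CPM (log2 fold change 0.05, adjusted p = 0.757). RPL26 was then called higher, so these contrasts with the parents depend on read assignment. RPL22L1, which can take the place of RPL22 in the ribosome, was at 261 ± 21.2 and 231 ± 27.5 CPM (log2 fold change −0.18, adjusted p = 0.238), and RPL22 at 322 ± 18.3 and 330.4 ± 24.6 CPM (log2 fold change 0.04, adjusted p = 0.792). RPL36A was at 10.5 ± 0.249 and 9.38 ± 0.628 CPM, with no overlap between groups and no call (log2 fold change −0.15, adjusted p = 0.453). Of its exon bases, 8.4% lie under RPL36A-HNRNPH2. RPL36AL, whose row held more reads, was at 190.4 ± 27.1 and 186 ± 13.4 CPM (log2 fold change −0.04, adjusted p = 0.842). RPS27L, a target of p53, was at 100.4 ± 7.13 and 107 ± 9.77 CPM (log2 fold change 0.09, adjusted p = 0.570), and RPS27 at 16.1 ± 4.53 and 17.4 ± 1.64 CPM (log2 fold change 0.10, adjusted p = 0.710). RPL10, RPL39 and RPL3, whose own L relatives were too low to test, were not called, with log2 fold changes of 0.04, 0.16 and 0.06.

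**Figure D4:**
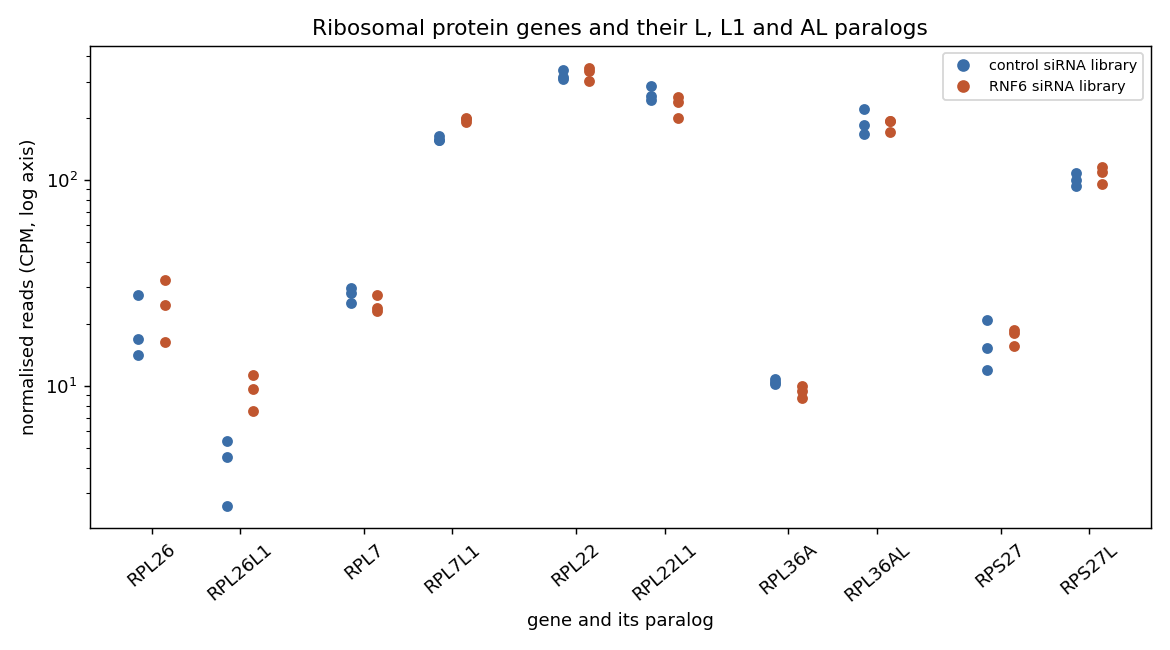
Normalised reads (CPM, log axis) in each library for 5 ribosomal protein genes and the paralog of each, without pseudogene rows. Control siRNA is in blue and RNF6 siRNA in orange. The groups separate upward for RPL26L1 and RPL7L1 and downward for RPL36A, which was not called, and overlap for RPL26, RPL7, RPL22, RPL22L1, RPL36AL, RPS27 and RPS27L.

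The P-stalk, the flexible arm of the 60S subunit that recruits elongation factors, had 0 of 4 members called. RPLP0 was at 841 ± 93.9 and 992 ± 93.9 CPM (log2 fold change 0.24, adjusted p = 0.114), RPLP1 at 1302 ± 218 and 1312 ± 178 CPM (log2 fold change 0.01, adjusted p = 0.959) and RPLP2 at 1115 ± 188 and 1066 ± 152 CPM (log2 fold change −0.07, adjusted p = 0.744). RPL12, at its base, was at 99.7 ± 10.96 and 124 ± 17.4 CPM with no overlap between groups (log2 fold change 0.31, adjusted p = 0.0672). Without control replicate 2, RPLP0 (adjusted p = 0.0280) and RPL12 (0.0214) were called higher. Pseudogene rows held 71.3% of the reads of RPL12 and its copies, and 58.1% of those of RPLP0 and its copies. With these rows added over all libraries, RPL12 was at 346.5 ± 50.8 and 434.2 ± 51.1 CPM and not called (adjusted p = 0.0555). RPLP0 was then at 1997 ± 219 and 2360 ± 199 CPM, also not called (adjusted p = 0.107).

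Per kilobase of transcript and by gene rows alone, the most abundant members were RPLP1 at 2937 CPM per kb, RPL8 at 2173 and RPS19 at 2111. These are means over the 6 libraries. The libraries ran from 2414 to 3401 for RPLP1, from 1586 to 2595 for RPL8 and from 1754 to 2471 for RPS19, so these neighbours overlapped. None of the 3 was called, with log2 fold changes of 0.01, 0.10 and 0.00.

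Other groupings of the members are given beside the 32.7% of all tested genes that were called. Around the polypeptide exit, RPL17 and RPL23A rose, RPL31 fell and 7 of 10 were not called (30% called), with a median log2 fold change of 0.09. Neither rise was called there without control replicate 2, control replicate 3 or RNF6 siRNA replicate 1, nor with libraries scaled to the members, and RPL38 joined the falls without control replicate 1. Leaving out any 1 of the other 3 libraries left 1 rise. Of 17 tested Diamond-Blackfan anaemia genes, whose loss impairs red cell formation, RPL11 rose and RPL31 fell (11.8% called), with a median of −0.01. A second fall was called without control replicate 1 or without RNF6 siRNA replicate 1. Among the 4 40S proteins that carry ubiquitin on stalled ribosomes, RPS2 rose, and RPS3, RPS10 and RPS20 were not called.

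RPL30 shares its RNA-binding fold with the L7Ae family, and 6 of the 11 measured genes of that family, RPL30 included, fell and none rose, with a median of −0.43, where 16.1% of all tested genes fell. Of its ribosomal members besides RPL30, RPL7A was at 321 ± 55.96 and 295 ± 15.4 CPM (log2 fold change −0.12, adjusted p = 0.464) and RPS12 at 774 ± 124 and 742 ± 91.9 CPM (log2 fold change −0.06, adjusted p = 0.749). NHP2L1, a protein of the box C/D small nucleolar RNPs and of the U4 snRNP, fell from 192 ± 27.2 to 126 ± 17.98 CPM (log2 fold change −0.61, adjusted p = 0.00314). GADD45B, a stress response gene, fell from 40.5 ± 3.27 to 24.2 ± 1.73 CPM (log2 fold change −0.74, adjusted p = 4.46e-04). SECISBP2L, GADD45A and GADD45G fell by 0.62, 0.41 and 1.45 on the log2 scale (adjusted p = 0.00852, 0.00639 and 0.0245). NHP2 and RPP38, of small nucleolar RNPs and RNase P, missed the threshold at log2 fold changes of −0.34 and −0.43 (adjusted p = 0.0599 and 0.0533), and SECISBP2 was at 0.05 (0.718). The GADD45G call ended without control replicate 3 (0.0803) or RNF6 siRNA replicate 3 (0.112), and scaling to the members left 3 falls in the family.

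Of 21 tested genes outside the class that share the TOP element, 5 rose (23.8%) and none fell, against 16.6% and 16.1% of all tested genes. Their median log2 fold change was 0.07. The elongation factor EEF2 rose from 2671 ± 272 to 3777 ± 398 CPM (log2 fold change 0.50, adjusted p = 0.00475). The initiation factor subunit EIF3F rose from 40.1 ± 2.44 to 76.1 ± 5.68 CPM (log2 fold change 0.92, adjusted p = 4.97e-05), and the histone chaperone NAP1L1 from 404 ± 23.96 to 611 ± 67.1 CPM (log2 fold change 0.60, adjusted p = 8.92e-04). EEF1D rose by less (log2 fold change 0.41, adjusted p = 0.00805).

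Of 14 genes that act in mTORC1 signalling or bind TOP mRNAs, 8 fell (57.1%) and none rose, against 16.1% and 16.6% of all tested genes, with a median of −0.39. They included the S6 kinase gene RPS6KB1 (log2 fold change −0.48, adjusted p = 0.00586), the translation repressor EIF4EBP2 (log2 fold change −0.40, adjusted p = 0.00687), the mTOR inhibitor DEPTOR (log2 fold change −0.71, adjusted p = 0.00700) and the complex subunit MLST8 (log2 fold change −0.61, adjusted p = 0.00955). Thus both activators and inhibitors of the pathway were among them. The count of falls was 5 without control replicate 3, 5 without RNF6 siRNA replicate 2 and 4 without RNF6 siRNA replicate 3. It was 3 when libraries were scaled to the members, where RPS6KB1 and EIF4EBP2 lost their calls (adjusted p = 0.107 for both). With a replicate block it was 1, and both lost their calls there too (adjusted p = 0.0504 for both). The DEPTOR call ended without control replicate 3 (0.0514) and the MLST8 call without RNF6 siRNA replicate 3 (0.0517). MTOR itself was at 124 ± 6.71 and 134 ± 14.1 CPM and was not called (log2 fold change 0.12, adjusted p = 0.429).

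Factors that escort ribosomal proteins or build them into subunits included more falls than rises: 7 of 16 fell and 2 rose (56.2% called, against 32.7% of all tested genes), with a median of −0.19. Without control replicate 3, and likewise without RNF6 siRNA replicate 3, 5 fell and 1 rose. GRWD1, a chaperone of RPL3, fell from 75.04 ± 5.29 to 45.9 ± 7.28 CPM (log2 fold change −0.70, adjusted p = 0.00110). EIF6, which keeps the 60S subunit from joining too early, fell from 68.9 ± 9.48 to 43.3 ± 2.89 CPM (log2 fold change −0.67, adjusted p = 0.00115). LTV1, a 40S assembly factor, fell from 76.2 ± 4.01 to 50.96 ± 4.05 CPM (log2 fold change −0.58, adjusted p = 0.00120). NAP1L1, which is in the TOP list too, was 1 of the 2 that rose.

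Among 13 genes of ribosomal stress sensing, 2 fell and 1 rose (23.1% called, under the 32.7% of all tested genes). G3BP1, a stress granule protein that also works with the 40S deubiquitylase USP10, fell from 419 ± 41.3 to 245 ± 24.1 CPM (log2 fold change −0.77, adjusted p = 1.83e-04). ZNF598, the ligase that marks 40S proteins on collided ribosomes, fell by 0.45 on the log2 scale (adjusted p = 0.0188), and SRSF1 rose by 0.30 (0.0238). MDM2, the partner of RPL11, RPL5 and RPL23, was at 147 ± 31.1 and 174 ± 15.7 CPM (log2 fold change 0.24, adjusted p = 0.190). The ZNF598 call ended without control replicate 2 (0.0556) or either of RNF6 siRNA replicates 2 (0.0770) and 3 (0.0537). The SRSF1 call ended without control replicate 2 (0.0551) or 3 (0.117) or RNF6 siRNA replicate 1 (0.0508) or 3 (0.128). Without control replicate 1, 5 of these genes fell and 2 rose, and without RNF6 siRNA replicate 1, 4 fell and none rose. With control replicate 2 left out 1 fell, and so it was for replicates 2 and 3 of RNF6 siRNA. Scaled to the members, 1 fell and none rose, and without the filter on low counts 4 fell and none rose.

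Pseudogenes took a large part of the reads of this class. Of the 87 members, 75 had rows listed under their own symbol with a P and a number, 856 rows in all, of which 320 had reads. These rows held 886984 reads beside the 2397784 of the members, or 27.0% of both together. In 15 members the pseudogene rows held more reads than the gene, such as 98.6% for RPL7, 97.0% for RPS3A and 67.7% for RPS2. The levels of such genes are uncertain, and a low CPM there cannot be read as low expression.

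Of 65 tested pseudogene rows, 7 rose and 2 fell, where 16.6% and 16.1% of all tested genes did. With all pseudogene rows added to their parent gene, 7 members were higher and 3 lower, and the median log2 fold change was 0.02. Here RPL26 joined the higher genes, and RPL13A and RPS2 left them. RPL17 kept its call (log2 fold change 0.63, adjusted p = 0.00318), as did RPL6 (log2 fold change 0.31, adjusted p = 0.0411), while the 3 falls and the rise of RPL11 stayed close to their values for the gene row alone.

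**Figure D5:**
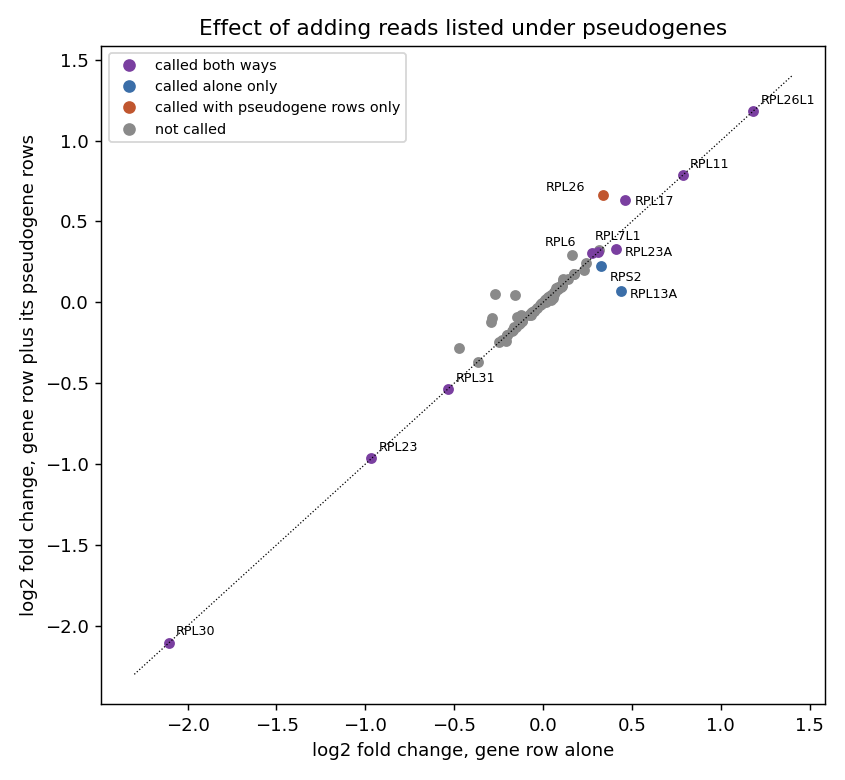
Log2 fold change of each tested ribosomal protein gene from its own row (horizontal) and after adding the reads of its pseudogene rows (vertical), with a line of equality and colour for the call. RPL30, RPL23, RPL31, RPL11 and RPL26L1 lie on the line, RPL13A moves from 0.44 to 0.07 and RPL26 from 0.34 to 0.66.

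Markers of cell types moved beside these results. The CPM of the marker sums leave out the TMM factors that the CPM of single genes include. The 9 colon epithelium markers summed to 3232 to 4066 CPM in control and 1640 to 1831 CPM in RNF6 siRNA libraries, where KRT8 fell from 3064 ± 442 to 1256 ± 104 CPM (adjusted p = 9.37e-06), KRT18 from 352 ± 62.6 to 115 ± 11.9 CPM (3.61e-06) and KRT20 from 1.99 ± 0.534 to 0.633 ± 0.192 CPM (0.00549). The other 3 tested markers, EPCAM, CDH1 and CDX2, were not called. The 6 fibroblast markers summed to 50.7 to 64.2 and 69.6 to 83.4 CPM, nearly all of it COL1A1, with COL1A2, COL3A1, DCN and LUM at or near 0. The 5 leukocyte markers summed to 1.12 to 1.43 and 0.881 to 1.45 CPM with CD68 at 0, and the 3 endothelial markers to 1.53 to 2.35 and 0.903 to 1.18 CPM with PECAM1 at 0. The part of these shifts in the ribosomal protein results was not tested.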

How the data were processed

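The values the authors deposited are raw read counts, 1 file a library. The submitters' processing notes name TopHat2 2.0.11, HTSeq and the build hg19 (GRCh37). For the annotation, the strand setting and read filters, nothing is stated in the sources used here. HTSeq keeps ambiguous reads (8.27% to 9.11% of listed reads) and reads with several alignments (11.4% to 12.5%) in rows of their own, which lowers genes with close copies. All rows that name no gene, 27.3% to 29.4%, entered neither library sizes nor tests.

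Counts were analysed in R 4.3.3 with edgeR 4.0.16: filterByExpr (minimum count 10, minimum total 15), TMM scaling, and a robust quasi-likelihood fit with group as its only term over all 6 libraries, two-sided. The common biological coefficient of variation was 10.5%. A positive log2 fold change means higher after RNF6 siRNA (prior count 0.125). Means are given with SD over 3 libraries. Alternatives were other scalings, no filter, a replicate block, each library left out, DESeq2 1.42.0, limma-voom (limma 3.58.1), scaling to the member genes, and pseudogene rows added to their gene. The last 2 and the run length of the start windows were chosen after seeing the data.

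The members and the gene lists were chosen with earlier results of these data known. Named genes are RNF6, RPL30, called members of at least 1.5-fold, up to 8 called members per direction, the 3 highest per kilobase, the next 2 after RPL30, paralog pairs, the L7Ae, 5S RNP and P-stalk lists, and up to 4 called genes of each other list. Transcript lengths, chromosomes and exon overlap come from GENCODE 29 and start windows from RefSeq, both on GRCh38, so no coordinate of the counts' build is given. Some genes of the class and the lists are not reported here.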

Additional observations from a re-analysis of the deposited data

How the results depend on the processing

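Of the 16 alternatives, scaling by upper quartile, by library totals, by RLE factors or by TMM without the members gave 7 or 8 higher and 3 lower members, as did limma-voom, and DESeq2 gave 6 and 3. Without the filter on low counts 5 members were higher. Scaling to the members, an alternative added after seeing the data, gave 3 higher, RPL11, RPL13A and RPL26L1, while the share of all genes called dropped from 32.7% to 16.0%. A replicate block also gave 3 higher and 3 lower, with RPL30 at −2.10 (adjusted p = 3.21e-04, edgeR). Same-numbered libraries deviated with correlations of −0.46, −0.25 and 0.05, so the numbers were not read as pairs. Leaving out 1 library gave 2 to 9 higher members and 3 to 9 lower ones, with 4 lower without RNF6 siRNA replicate 1, where RPS7 was added. The median log2 fold change of the members ran from −0.08 to 0.11 over these fits, and the difference in the share of member reads from −0.218 to 0.300 percentage points. None of the named genes that were called changed sign. Of the lists, the block gave 1 fall among the mTORC1 genes (8 without it), 3 in the L7Ae family (6) and 3 rises among the other TOP genes (5). Low-count members such as RPL26L1, and those whose pseudogene rows hold most reads, are limited by depth and by read assignment.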
